A study of Mus musculus with 39 samples.

Results

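Left ventricles of 3-week-old mice homozygous for R14del in Pln were compared with left ventricles of wild type mice of the same age. R14del removes the codon for arginine 14 of phospholamban. The 2 groups were taken from the sample labels and hold 4 libraries each, 8 of the 39 libraries of the series. The homozygous mice carried the genotype Pln R14del/R14del and the controls had no mutant allele. Both groups were of strain C57BL6/J, and neither had surgery. The labels do not describe how the allele was made, how many founder lines there were, or which hearts were littermates, and the samples are whole ventricular tissue, in which cells of every type are mixed. Whether the replicates come from separate animals is not stated, and p-values therefore measure only how far these libraries spread. Each library is called a heart here. The same series sampled homozygous and wild type hearts at 5 weeks (4 and 4) and at 8 weeks (4 and 3), and these are used here to follow the 3-week differences. The question of the comparison is what differs at the earliest age sampled.

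Phospholamban is a small protein of the sarcoplasmic reticulum of heart muscle. In its unphosphorylated form it slows the calcium pump encoded by Atp2a2, and phosphorylation during beta-adrenergic stimulation lifts this brake, so that the muscle relaxes faster and stores more calcium for the next beat. Arginine 14 lies in the cytoplasmic part of the protein, in the motif read by protein kinase A, and loss of this residue causes an inherited cardiomyopathy in people.

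The coding sequence of Pln is shown because it holds the deleted codon. It lies within a single exon on the plus strand of chr10:53343864-53344022 (GRCm38, GENCODE vM21), and the capitals mark codon 14, from 53343903 to 53343905, as the reference genome has it.
Pln coding sequence: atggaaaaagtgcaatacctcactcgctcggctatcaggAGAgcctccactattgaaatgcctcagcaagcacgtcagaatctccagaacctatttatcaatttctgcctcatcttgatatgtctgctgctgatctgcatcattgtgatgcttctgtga

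The counts per gene cannot show the deletion itself, since it removes only a few bases, so the level of Pln does not check the genotype labels. Pln stood at 4582, 4427, 3718 and 4912 CPM (the count of a gene scaled to the total of its library) in homozygous replicates 1 to 4, against 3979.7, 3596, 4226 and 4457 CPM in wild type replicates 1 to 4. The groups overlapped, with a log2 fold change of 0.09 (SE 0.11, adjusted p = 0.821 by edgeR's quasi-likelihood test with Benjamini-Hochberg adjustment). Fold changes throughout are homozygous over wild type, from a fit with TMM scaling. Atp2a2, the pump, averaged 12317 ± 1932 CPM in homozygous hearts and 14360.3 ± 1905 CPM in wild type hearts (SD, n = 4 each), and its log2 fold change of -0.25 had an SE of 0.14.

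The libraries held 13.07 M to 18.95 M counts, of which 12.9% to 15.8% were mitochondrial. All 8 libraries carried the markers of ventricular heart muscle, with the lowest of the 8 markers at 1027 CPM or more, and all 8 stood on the male side by their Y-linked genes. No pair of replicates held identical counts. The homozygous hearts differed more among themselves than the wild type hearts did. The chi-square statistic per gene between replicates was 13.6 to 38 in the 6 homozygous pairs, against 6.08 to 14.8 in the 6 wild type pairs. The median SD of log2 CPM over 13427 genes was 0.19 among homozygous hearts, or 0.17 without replicate 3, against 0.15 among wild type hearts, and 62% of genes had the larger SD in the homozygous group. On the first principal component, which held 32.3% of the variance, homozygous replicates 3 and 4 lay at 0.58 and 0.59, the other 2 homozygous hearts at -0.06 and -0.09, and the wild type hearts between -0.36 and -0.13. Homozygous replicate 3 is the library with high Nppa, and results are given with and without it.

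Across all genes, no gene passed an adjusted p of 0.05 by edgeR's quasi-likelihood test with Benjamini-Hochberg adjustment, so 0% of 13427 genes were called at 3 weeks. Without homozygous replicate 3 the test called 0% of 13543 genes as well. At an unadjusted p under 0.05 there were 1515 genes with all 8 hearts (11.3% of those tested, 761 higher and 754 lower in homozygous hearts) and 1497 genes without replicate 3 (11.1%, with 5.35% higher and 5.7% lower). limma-voom with quality weights also called none with or without that heart. DESeq2 called 119 genes (0.886%), 60 higher and 59 lower, and 126 genes (0.93%) without replicate 3, with 65 genes in both sets. A fit of all 39 libraries, which estimates the spread from every group of the series, called 46 of 15258 genes (0.301%), 30 higher and 16 lower. Without the filter on low counts 25 of 21752 genes were called (0.115%), or 229 of 21384 (1.07%) without replicate 3. The median log2 fold change of all genes tested was 0.00, and 90% of genes lay between -0.43 and 0.39.

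In 862 genes (6.42%) every homozygous heart lay on the same side of every wild type heart, 606 higher (4.51%) and 256 lower (1.91%) on the CPM scale. This split depends on the scaling: on TMM-scaled values the groups were apart in 788 genes (5.87%), 408 higher (3.04%) and 380 lower (2.83%), and 447 of the 862 genes were among them. Without homozygous replicate 3, 1398 genes (10.3%) had non-overlapping groups, 867 higher (6.4%) and 531 lower (3.92%). Of the 862 genes, 526 also had an unadjusted p under 0.05 and a mean of at least 5 CPM in a group. The genes described first are the 8 with the largest fold changes each way among these 526, and they are described without a call at the adjusted threshold.

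The genes with higher values in homozygous hearts encode transcription factors, enzymes, a channel subunit and a secreted factor. Nr4a3, an orphan nuclear receptor that is induced within minutes by many stimuli, had 4.86, 4.77, 23.5 and 71.9 CPM in homozygous replicates 1 to 4, against 0.836, 2.36, 2.78 and 2.53 CPM in wild type hearts. Its log2 fold change of 3.61 (SE 0.86) was the largest of the set, and replicates 3 and 4 held most of it. Npas2 is a clock transcription factor that can stand in for CLOCK. It had 7.71, 9.53, 20.1 and 13.8 CPM in homozygous hearts, against 4.95, 4.52, 2.98 and 3.21 CPM in wild type hearts. Its log2 fold change was 1.66 (SE 0.29). Kcne1, the accessory subunit of the slow delayed rectifier potassium channel, had 205, 111, 79.4 and 79.1 CPM in homozygous hearts, against 48.1, 50.2, 34.6 and 54.6 CPM in wild type hearts. Here replicate 1 was the highest and replicates 3 and 4 the lowest of the homozygous group (log2 fold change 1.31, SE 0.28).

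Adam19 is a membrane-bound metalloprotease (chromosome 11, 46055992 to 46147343, GRCm38). It had 96.1, 80.2, 151 and 124 CPM in homozygous hearts, against 52.5, 52.1, 45.7 and 36.1 CPM in wild type hearts. Its log2 fold change was 1.24 (SE 0.18). Plekhh1 (chromosome 12, 79029163 to 79081655, GRCm38) had 9.34, 9.60, 19.8 and 19.4 CPM in homozygous hearts, against 3.47, 5.67, 4.56 and 4.98 CPM in wild type hearts (log2 fold change 1.61, SE 0.27). Dusp5, a nuclear phosphatase of ERK, and Phlda1 were above the wild type range mainly in replicates 3 and 4. Dusp5 stood at 8.08, 7.57, 21 and 32.3 CPM in homozygous hearts, against 7.39, 6.82, 5.69 and 5.89 CPM in wild type hearts, and Phlda1 at 13.8, 13.5, 42.0 and 39.5 CPM, against 9.20, 13.5, 10.8 and 13.1 CPM. The log2 fold change of Ndnf, a secreted factor, was 1.63, but homozygous replicate 3 alone held 15.3 CPM, and without it the value was 0.68. The adjusted p of these 8 genes lay between 0.17 and 0.339 by edgeR's quasi-likelihood test with Benjamini-Hochberg adjustment.

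The genes with lower values in homozygous hearts included a muscle kinase, a sodium channel and enzymes of retinoid and sugar metabolism. Mylk4, a kinase of the myosin light chain kinase family (chromosome 13, 32700834 to 32783954, GRCm38), had 58.0, 131, 87.1 and 72.6 CPM in homozygous replicates 1 to 4, against 152, 191, 303 and 273 CPM in wild type hearts (log2 fold change -1.43, SE 0.26). Lrat, which esterifies retinol for storage, had 4.33, 11.5, 4.37 and 4.04 CPM in homozygous hearts, against 16.2, 13.8, 19.1 and 12.9 CPM in wild type hearts, with replicate 2 close to the wild type range (log2 fold change -1.40, SE 0.30). Pfkfb1, which sets the level of the glycolytic activator fructose-2,6-bisphosphate, had 1.58, 2.81, 1.31 and 2.82 CPM in homozygous hearts, against 4.24, 4.46, 4.96 and 6.58 CPM in wild type hearts (log2 fold change -1.28, SE 0.28). Groups without overlap were a condition for choosing these 3 genes, as stated above.

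Scn4a, a sodium channel best known from skeletal muscle, had 10.6, 14.1, 5.74 and 13.8 CPM in homozygous hearts, against 28.2, 16.2, 27.8 and 19.1 CPM in wild type hearts (log2 fold change -1.08, SE 0.27). Klhl33, of the kelch-like family, had 14.9, 14.8, 6.59 and 11 CPM in homozygous hearts, against 25.2, 18.5, 26.9 and 26.3 CPM in wild type hearts (log2 fold change -1.07, SE 0.23). Nr1d1, the clock repressor REV-ERB alpha, had 128, 103, 46.6 and 34.0 CPM in homozygous hearts, against 149, 153, 184 and 157 CPM in wild type hearts, and here replicates 3 and 4 were the lowest (log2 fold change -1.07, SE 0.33). The log2 fold changes of the other 2 genes were -1.13 for Abhd1 and -1.07 for the interferon-induced Ifi27l2a. Adjusted p for these 8 genes ran from 0.21 to 0.301 by edgeR's quasi-likelihood test with Benjamini-Hochberg adjustment. The plots of CPM per heart show 10 of the genes whose groups did not overlap.

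**Figure D1:**
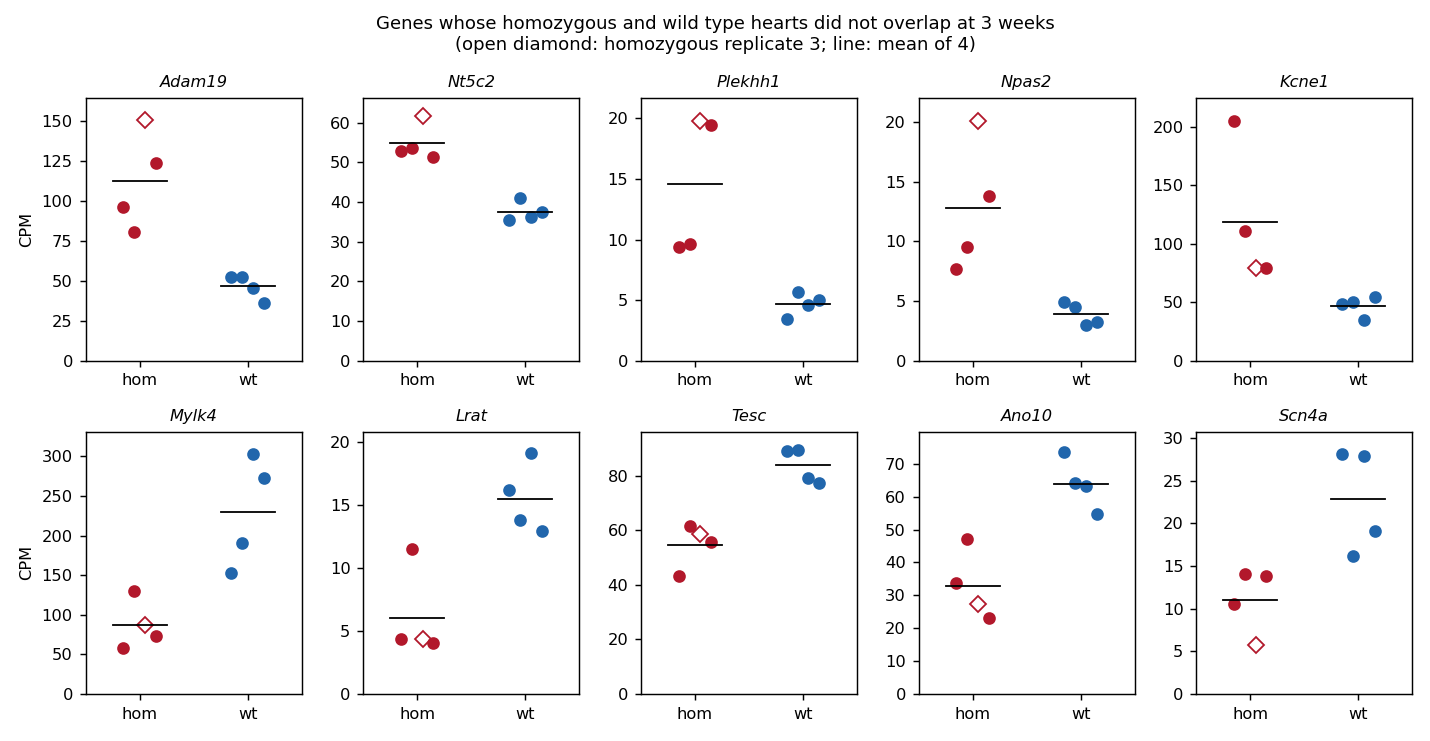
CPM of 10 genes in each heart at 3 weeks, homozygous (hom) left and wild type (wt) right, on linear axes that start at 0, with the mean of 4 hearts as a line and homozygous replicate 3 as an open diamond. The genes shown are among those whose groups did not overlap. For Nt5c2 the homozygous hearts stand at 51.4 to 61.7 CPM and the wild type hearts at 35.4 to 41.0 CPM.

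Some differences were called by several of the alternative fits. Of the genes called by at least 2 of the alternative fits (44 genes, 28 higher and 16 lower), none had overlapping groups. Over all genes tested, 6.42% had groups without overlap. The fits used these same counts, so the lack of overlap is not separate evidence for the called genes. Nt5c2, a cytosolic nucleotidase of purines, had 52.8, 53.7, 61.7 and 51.4 CPM in homozygous hearts, against 35.4, 41.0, 36.3 and 37.4 CPM in wild type hearts (log2 fold change 0.52, SE 0.08). Abca4, a transporter known for moving retinoids in the retina, averaged 13.9 ± 2.07 CPM in homozygous hearts and 6.44 ± 1.33 CPM in wild type hearts (SD, n = 4 each). Tesc, a calcium-binding protein, averaged 54.7 ± 8.07 CPM in homozygous hearts and 83.8 ± 6.36 CPM in wild type hearts, and Ano10, of the anoctamin family, 32.9 ± 10.5 CPM in homozygous hearts and 63.8 ± 7.71 CPM in wild type hearts (SD, n = 4 each). Igfbp5, a binding protein of insulin-like growth factors, had a log2 fold change of 0.64 (SE 0.12), Polr1e, a subunit of RNA polymerase I, 0.60 (SE 0.11), and the nucleic acid-binding Fubp1 0.40 (SE 0.08). DESeq2 gave these genes an adjusted p from 1.41e-05 for Abca4 to 0.00342 for Fubp1, while edgeR's quasi-likelihood test gave 0.17 and 0.213 after Benjamini-Hochberg adjustment.

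Leaving out homozygous replicate 3 brought forward genes in which that heart lay nearer the wild type. They were chosen by small p-values in the fit without it, a choice that favours such genes and larger fold changes without that heart. In that fit edgeR's quasi-likelihood test called none of them after Benjamini-Hochberg adjustment. Ramp1, a subunit of the receptor for calcitonin gene-related peptide, had 23.2, 22, 15.2 and 23.3 CPM in homozygous replicates 1 to 4, against 12.2, 10.2, 12.4 and 13.6 CPM in wild type hearts. Its log2 fold change was 0.76 with replicate 3 and 0.90 without it. Pdzd2 had 200.2, 200.1, 126 and 209 CPM in homozygous hearts, against 129, 125, 137 and 142 CPM in wild type hearts, and replicate 3 was the lowest of the homozygous group and within the wild type range. Cish, a feedback inhibitor of cytokine signalling, had 213, 245, 192 and 312 CPM in homozygous hearts, against 123, 169, 108 and 136 CPM in wild type hearts, and its log2 fold change of 0.82 became 0.93 without replicate 3. Scn4b, a regulatory subunit of cardiac sodium channels, had 0.845, 1.57, 4.60 and 1.92 CPM in homozygous hearts, against 5.98, 4.21, 8.86 and 3.44 CPM in wild type hearts. Replicate 3, the highest homozygous heart, exceeded 2 wild type hearts, and with it the log2 fold change was -1.37, and without it -1.99. The log2 fold changes without replicate 3 were 0.58 for the matrix protein Emilin2, -0.86 for Fam213b and -0.63 for Asap3.

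Gene lists were described by counts at an unadjusted p under 0.05, which 5.67% of all genes tested reached in the upward and 5.62% in the downward direction, and by the median log2 fold change, which was 0.00 over all genes. No member of any list was called by edgeR's quasi-likelihood test with Benjamini-Hochberg adjustment with or without homozygous replicate 3. A score per heart is the median of the list's TMM-scaled log2 CPM after subtracting each gene's mean over the 8 hearts.

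The genes of the circadian clock that peak with Bmal1 were higher in homozygous hearts. All 6 listed genes had positive fold changes, 5 of them at an unadjusted p under 0.05. The groups did not overlap in 4 of the 6. Over all genes tested, 4.51% were higher without overlap. The median log2 fold change was 0.98, or 1.03 without replicate 3 and 0.61 without replicate 4. The list score was 0.02, 0.20, 0.42 and 1.02 in homozygous replicates 1 to 4, against -0.41, -0.39, -0.33 and -0.72 in wild type hearts, so that the groups did not overlap. Beside Npas2, Cry1, a repressor of CLOCK and BMAL1, had 16.9, 15.1, 14.7 and 27.7 CPM in homozygous hearts, against 9.58, 11.1, 10.5 and 11 CPM in wild type hearts, and Nfil3, a repressor that binds D-boxes, had 19.3, 20.1, 25.5 and 37.9 CPM, against 17.1, 11.8, 14.5 and 9.11 CPM. Of 12 genes of the opposite phase, 1 was higher and 2 were lower at an unadjusted p under 0.05, with a median of -0.19, or -0.06 without replicate 3. Dbp, an activator that binds D-boxes, had 105, 29.3, 22.1 and 41.0 CPM in homozygous hearts, against 73.6, 85.8, 109 and 117 CPM in wild type hearts, with replicate 1 among the wild type values, and Per1, a clock repressor, had a log2 fold change of 0.30. The labels give no time of day for tissue collection, so a difference in sampling time between the groups cannot be told apart from a difference by genotype.

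Immediate early genes, which cells switch on within minutes of a stimulus, had positive fold changes in all 25 genes tested, 17 of them at an unadjusted p under 0.05. The score was -0.33, -0.12, 0.84 and 0.82 in homozygous replicates 1 to 4, against -0.23, -0.16, -0.59 and -0.21 in wild type hearts, so that replicates 3 and 4 were high, replicate 2 lay just above the wild type range and replicate 1 within it. Nr4a1, a nuclear receptor related to Nr4a3, had 9.13, 9.27, 142 and 212 CPM in homozygous hearts, against 8.49, 10.8, 5.29 and 15 CPM in wild type hearts. Atf3, a stress-induced transcription factor, had 3.64, 5.94, 26.1 and 41.0 CPM in homozygous hearts, against 1.99, 5.61, 2.12 and 2.99 CPM in wild type hearts. The median log2 fold change of the list was 0.81, or 0.55 without replicate 3 and 0.56 without replicate 4. The counts at an unadjusted p under 0.05 were then 11 and 12. Tissue handling before RNA isolation is not described in the labels, and its part in this list was not tested.

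Cell cycle genes, most of them needed for DNA replication and mitosis, had lower values in homozygous hearts in 38 of 40 genes, with a median log2 fold change of -0.92. At an unadjusted p under 0.05, 16 were lower and 1 was higher, and without replicate 3, which had the highest score of the homozygous group, 31 were lower and the median was -1.24. The score was -0.99, -0.22, 0.45 and -0.85 in homozygous replicates 1 to 4, against -0.19, 1.18, 0.51 and 0.49 in wild type hearts, and the groups overlapped. Wild type replicate 2 was the highest of all hearts, and without it the median was -0.58 and 5 genes were lower. Ttk, a kinase of the spindle checkpoint, had 0.0528, 0.261, 0.625 and 0.321 CPM in homozygous hearts, against 0.643, 1.66, 1.06 and 1.15 CPM in wild type hearts, which did not overlap, but at a level near 1 CPM. Mcm7, a part of the replicative helicase, had 17.9, 14.3, 13.3 and 13.9 CPM in homozygous hearts, against 16.8, 21.5, 20.4 and 19.1 CPM in wild type hearts, and Cdc20, an activator of the anaphase-promoting complex, 1.37, 2.22, 2.90 and 2.18 CPM, against 2.12, 6.31, 4.69 and 4.21 CPM. Homozygous replicate 1 of Mcm7 and replicates 2, 3 and 4 of Cdc20 lay within the wild type range. The gene with the other direction at that p was Cenpf, a kinetochore protein, with 9.87, 6.92, 7.90 and 7.76 CPM in homozygous hearts, against 3.67, 6.95, 4.36 and 7.19 CPM in wild type hearts. In whole tissue, fewer cells of a type and less RNA per cell cannot be told apart.

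The promoters of Ttk, Cdc20 and Cenpf are shown because cell cycle genes share promoter elements. RefSeq promoters matched 33 of the 40 genes, with 36 promoters between them. The CCAAT box was searched as CCAAT and the cell cycle homology region (CHR) as TTTGAA, both on either strand, in the 250 bases before the start. The CCAAT letters stood in 31 of 36 promoters of the list (86.1%), against 33.8% of all 32851 promoters, and the CHR letters in 10 of 36 (27.8%), against 16% of all promoters. The stretches below are the 120 bases before the start (GRCm38.p6, 5′ to 3′ on the gene's strand), with both motifs in capitals. They are chr9:83834569-83834688 on the plus strand for Ttk, chr4:118437344-118437463 on the minus strand for Cdc20 and chr1:189688087-189688206 on the minus strand for Cenpf.
Ttk: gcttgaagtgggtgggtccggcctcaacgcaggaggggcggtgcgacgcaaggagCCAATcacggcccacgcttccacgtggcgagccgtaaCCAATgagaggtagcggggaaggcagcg
Cdc20: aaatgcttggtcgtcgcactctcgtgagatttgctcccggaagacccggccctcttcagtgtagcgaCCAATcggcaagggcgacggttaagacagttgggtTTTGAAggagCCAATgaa
Cenpf: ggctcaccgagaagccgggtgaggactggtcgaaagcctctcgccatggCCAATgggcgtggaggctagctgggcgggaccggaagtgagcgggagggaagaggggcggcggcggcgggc
Within these stretches Cdc20 holds both motifs, and Ttk and Cenpf hold the CCAAT letters alone. The motif letters describe the window only, and Cenpf holds them while its fold change was positive.

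Interferon-stimulated genes, which defend against viruses, had negative fold changes in 27 of 27 genes, 12 of them at an unadjusted p under 0.05. The median log2 fold change was -0.48, or -0.58 without replicate 3. The score was -0.003, -0.31, -0.04 and -0.53 in homozygous hearts, against 0.23, 0.58, 0.52 and -0.31 in wild type hearts. Wild type replicate 4 lay among the homozygous hearts, and without it 26 of the 27 genes were lower at an unadjusted p under 0.05, while without wild type replicate 2 or 3 the number was 5. Irf7, a transcription factor of the interferon response, had 13.6, 10.2, 12.6 and 7.76 CPM in homozygous hearts, against 15.9, 24.2, 22.3 and 11.6 CPM in wild type hearts, and the effector Ifit3 had 7.97, 4.50, 5.57 and 4.68 CPM, against 7.52, 13, 14.7 and 5.89 CPM. The log2 fold change of the related Ifit3b was -1.10. Reads of Ifit3 and Ifit3b, which are near-identical copies, could be split between them by the counting.

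Macrophage markers were also on the low side, with negative fold changes in 14 of 15 genes, 6 at an unadjusted p under 0.05, and a median of -0.29. Their summed level was 315 to 416 CPM in homozygous hearts, against 399 to 516 CPM in wild type hearts. Lyz2, a lysozyme of phagocytes, had 64.7, 80.5, 96.3 and 67.8 CPM in homozygous hearts, against 95.4, 106, 129.7 and 83.7 CPM in wild type hearts. C1qb, a complement component made by resident macrophages, had 45.1, 50.8, 46.9 and 38.4 CPM in homozygous hearts, against 53.2, 62.5, 55.2 and 47.5 CPM in wild type hearts, and the scavenger receptor Cd163 had 8.55, 19.8, 3.98 and 8.91 CPM, against 15, 19.6, 28.2 and 25.2 CPM. The part of macrophage content in the interferon list was not tested.

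Genes of fatty acid oxidation, the main fuel pathway of the adult heart, had negative fold changes in 29 of 32 genes, 10 of them at an unadjusted p under 0.05. Without a single heart this number was between 4 (without homozygous replicate 1 or 3 or wild type replicate 3) and 19 (without homozygous replicate 4), and 5 without wild type replicate 1. The median log2 fold change was -0.18, or -0.12 without homozygous replicate 3 and -0.30 without homozygous replicate 4. The score was -0.37, 0.01, -0.30 and 0.20 in homozygous replicates 1 to 4, against 0.21, -0.05, 0.19 and 0.07 in wild type hearts, so that replicates 1 and 3 were low and replicates 2 and 4 lay within the wild type range. Plin5, which coats lipid droplets at mitochondria, had 93.5, 149, 89.4 and 138 CPM in homozygous hearts, against 171, 209, 206 and 173 CPM in wild type hearts, and did not overlap. Ucp3, a mitochondrial carrier, had 46.7, 64.6, 33.4 and 80.5 CPM in homozygous hearts, against 181, 67.1, 154 and 84.4 CPM in wild type hearts, and Acsl1, which activates fatty acids, averaged 768 ± 103 CPM in homozygous hearts and 988 ± 91.8 CPM in wild type hearts (SD, n = 4 each). Ppargc1a, a coactivator of mitochondrial genes, went the other way, with 113, 94.6, 99.0 and 278 CPM in homozygous hearts, against 72.8, 79.0, 92.6 and 88.0 CPM in wild type hearts, and replicate 4 held most of that difference. Nuclear genes of the respiratory chain had a median of -0.06, with 27 of 29 genes on the negative side, or 18 with a median of -0.03 without homozygous replicate 3 and 20 with -0.02 without wild type replicate 1, and the 7 of 13 mitochondrial genes that passed the filter a median of -0.12.

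Calcium handling genes had a median near that of all genes. Of 24 calcium handling genes, 3 were lower and none higher at an unadjusted p under 0.05, with a median of -0.04. Without homozygous replicate 3, 2 were lower and none higher at that p, with a median of 0.003. Ryr2, the calcium release channel, had 1297, 1357, 1027 and 1345 CPM in homozygous hearts, against 1548, 1339, 1709 and 1632 CPM in wild type hearts (log2 fold change -0.34, SE 0.12), and Hrc, which binds calcium in the reticulum, had a log2 fold change of -0.26. Without homozygous replicate 3 these fold changes were -0.24 for Ryr2 and -0.18 for Hrc, and Hrc no longer reached that p. Casq2, which stores calcium in the reticulum, averaged 1217 ± 154 CPM in homozygous hearts and 1249 ± 63.7 CPM in wild type hearts (SD, n = 4 each). Sarcolipin (Sln), an atrial regulator of the pump, stood at 1.43, 12.3, 14 and 13.2 CPM in homozygous hearts and 2.89, 13.6, 21.5 and 7.50 CPM in wild type hearts. 

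Sarcomere genes went both ways. Of 22 genes, 2 were higher and 4 lower at an unadjusted p under 0.05, or 4 and 5 without replicate 3, and the median was -0.02, or 0.07 without it. Myom2, a protein of the M-band, had 1108, 1091, 1363 and 2209.5 CPM in homozygous replicates 1 to 4, against 498, 826, 1034 and 857 CPM in wild type hearts, and the groups did not overlap (log2 fold change 0.82, SE 0.25). Its relative Myom1 was on the other side, with 1470.3, 1468, 1166 and 1485 CPM in homozygous hearts, against 1698, 1996, 1912 and 1769 CPM in wild type hearts, again without overlap (log2 fold change -0.43, SE 0.10). Tcap, the Z-disc protein that caps titin, had 843, 654, 408 and 655 CPM in homozygous hearts, against 1109, 816, 1168 and 1133 CPM in wild type hearts, and wild type replicate 2 lay within the homozygous range (log2 fold change -0.75, SE 0.20). DESeq2 called Mylk4, Myom1 and Tcap lower. Of 22 ion channel genes 1 was higher and 4 were lower at an unadjusted p under 0.05, or 0 and 3 without replicate 3, with a median of -0.10. The higher gene was Gja1, the gap junction protein connexin 43, with 378, 254, 508 and 501 CPM in homozygous hearts, against 289.6, 235, 293 and 312 CPM in wild type hearts, and the lower ones included Scn4b and Kcnip2. Myh6, the fast myosin heavy chain, averaged 42213 ± 5241 CPM in homozygous hearts and 40008 ± 1031 CPM in wild type hearts (SD, n = 4 each).

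For collagens, the fibres of scar tissue, the direction depended on single hearts. Of 17 collagen genes none reached an unadjusted p under 0.05, with a median log2 fold change of -0.02, or -0.17 without replicate 3, when all 17 were on the negative side and 3 were lower at that p. Without homozygous replicate 4, 14 of the 17 were on the positive side. Col1a1 averaged 620.3 ± 195 CPM in homozygous hearts and 581 ± 70.0 CPM in wild type hearts, and Col3a1 1227 ± 407 CPM in homozygous hearts and 1212 ± 163 CPM in wild type hearts (SD, n = 4 each). Postn, the periostin of activated fibroblasts, had 125, 95.8, 239 and 105 CPM in homozygous replicates 1 to 4, against 94.4, 181, 103 and 119.9 CPM in wild type hearts. Homozygous replicate 3 and wild type replicate 2 were the high hearts of their groups. 

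Most of the other lists had medians near that of all genes, some of them with members on both sides. Imprinted growth genes and markers of the conduction system lay further away. The median log2 fold change was 0.06 for the unfolded protein response, -0.12 for the integrated stress response, -0.08 for glycolysis, -0.05 for glucocorticoid-responsive genes, -0.06 for hypoxia-responsive genes, -0.0013 for matricellular and crosslinking genes, -0.0043 for p53 targets and -0.0039 for cholesterol synthesis. At an unadjusted p under 0.05, which 11.3% of all genes reached, the glucocorticoid list held 5 higher and 3 lower genes of 20, the matricellular list 3 and 3 of 25, the p53 list 3 and 1 of 15 and the glycolysis list 1 and 3 of 22. The other 4 of these lists held 0 to 3 higher and 0 to 1 lower genes of 18 to 23. Fkbp5, a glucocorticoid-induced partner of the glucocorticoid receptor, had 25.2, 37.4, 12.7 and 20.0 CPM in homozygous hearts, against 23.2, 63.9, 60.5 and 54.1 CPM in wild type hearts, with wild type replicate 1 within the homozygous range (log2 fold change -1.11). Imprinted growth genes, which are read from the copy of a single parent, had positive fold changes in 13 of 14 genes, 3 at an unadjusted p under 0.05, with a median of 0.17. Their score was 0.11, 0.05, 0.20 and 0.04 in homozygous replicates 1 to 4, against -0.02, -0.07, -0.11 and -0.01 in wild type hearts, so that the scores did not overlap. Of the 14 genes, 1 was higher without overlap, against 4.51% of all genes tested. Markers of the conduction system had negative fold changes in 7 of 8 genes, 3 at an unadjusted p under 0.05, with a median of -0.43. Their score was -0.35, 0.09, -0.37 and -0.21 in homozygous hearts, against 0.15, 0.17, 0.21 and 0.41 in wild type hearts. These scores did not overlap, and homozygous replicate 2 stood nearest the wild type. No tested member had groups apart, against 1.91% of all genes tested that were lower without overlap. The summed CPM overlapped, with 106.7 in homozygous replicate 2 and 101.9 in wild type replicate 2.

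**Figure D2:**
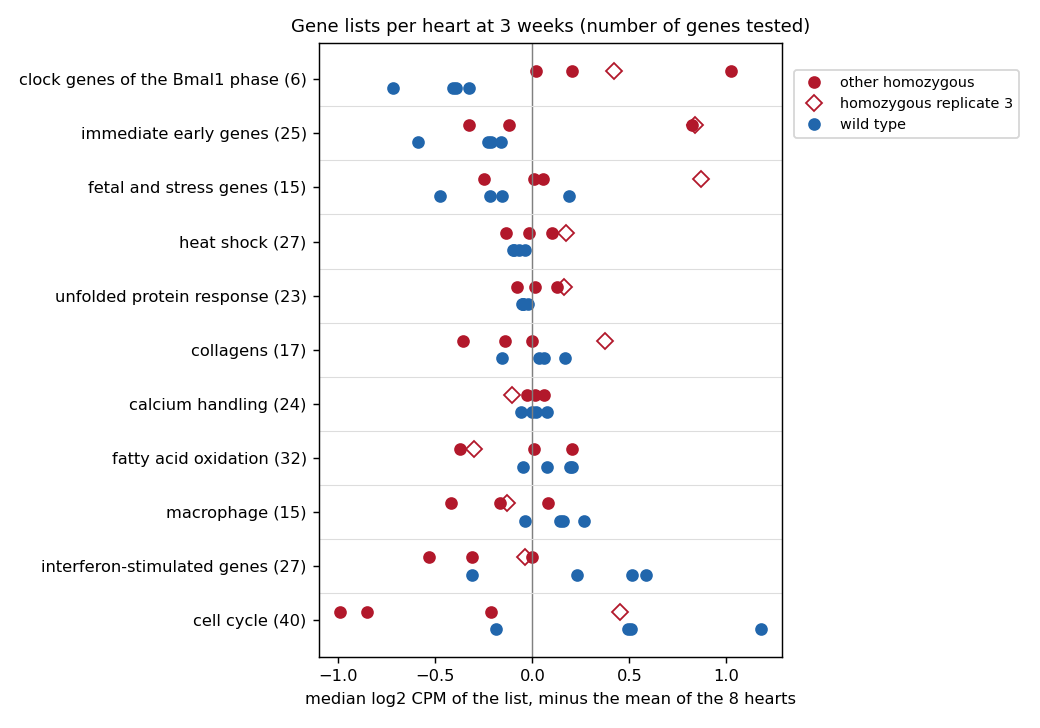
Median TMM-scaled log2 CPM of 11 gene lists in each heart at 3 weeks, after subtracting each gene's mean over the 8 hearts, with homozygous hearts above wild type hearts in each row and the number of genes tested in brackets. Among the 11 lists, the homozygous and wild type ranges are apart in the clock list alone. In the immediate early list homozygous replicates 3 and 4 stand apart, at 0.84 and 0.82. The imprinted and conduction lists, whose ranges were also apart, are not shown.

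Stress genes of the heart muscle cell were high in a single homozygous heart. Nppa, the precursor of atrial natriuretic peptide, had 246, 214, 1621 and 230.4 CPM in homozygous replicates 1 to 4, against 148, 534, 269 and 176 CPM in wild type hearts. Its log2 fold change was 0.997 (SE 0.64) with all hearts and -0.29 (SE 0.33) without replicate 3. Nppb, the precursor of B-type natriuretic peptide, had 62.0, 43.7, 327 and 65.1 CPM in homozygous hearts, against 29.7, 114, 37.2 and 19.7 CPM in wild type hearts. Acta1, the skeletal actin expressed in the fetal heart, had 145, 208, 891 and 106 CPM in homozygous hearts, against 193, 696, 363 and 237 CPM in wild type hearts, and without replicate 3 its log2 fold change was -1.29 instead of -0.18. Wild type replicate 2 was the highest wild type heart for all 3 genes.

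Ankrd1, a titin-associated stress protein, differed from these in that 3 of the 4 homozygous hearts exceeded every wild type heart. It had 517, 290.0, 1475 and 627 CPM in homozygous replicates 1 to 4, against 206, 395, 346 and 188 CPM in wild type hearts (log2 fold change 1.32, or 0.75 without replicate 3). Rcan1, an inhibitor and target of calcineurin, had 73.9, 94.2, 170.3 and 81.7 CPM in homozygous hearts, against 59.7, 82.9, 59.2 and 53.1 CPM in wild type hearts, and Myh7, the slow myosin heavy chain, had 35.6, 20.0, 38.6 and 19.9 CPM, against 20.1, 23.3, 20.6 and 15.9 CPM. The 15 fetal and stress genes tested had a median log2 fold change of 0.55 with all hearts and 0.18 without replicate 3, and their score was 0.06, 0.01, 0.87 and -0.25 in homozygous replicates 1 to 4, against -0.48, 0.19, -0.16 and -0.22 in wild type hearts.

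Homozygous replicate 3 also stood apart in other genes. Among 10942 genes with at least 5 CPM in a library, 28 were more than 1 log2 unit above all other 7 hearts in this library, compared with 0 to 11 in the others, and 11 were as far below, compared with 0 to 7. Among genes with a symbol, the widest gaps above the other hearts were in Atp2a1, the fast skeletal calcium pump, the heat shock genes Hspa1b and Hspa1a, the transcription factor Egr2 and Gdf15, a secreted stress signal. Hspa1a had 1.95, 1.24, 29.1 and 5.45 CPM in homozygous replicates 1 to 4, against 1.35, 0.828, 1.12 and 0.612 CPM in wild type hearts, with replicate 4 also above the wild type range. Hspa1b, its near-identical copy, had 0.792, 1.57, 34.4 and 5.58 CPM in homozygous hearts, against 0.772, 1.08, 1.19 and 0.918 CPM in wild type hearts. Gdf15 had 2.01, 0.849, 11.6 and 0.898 CPM in homozygous hearts, against 0.386, 1.34, 1.26 and 0.0765 CPM in wild type hearts. In Atp2a1 replicate 3 held 9.15 CPM, and the other 7 hearts were below 1 CPM. Among 27 heat shock genes, 7 were higher and 2 lower at an unadjusted p under 0.05, with a median of 0.12. Chordc1, a cochaperone, had 26.1, 32.8, 41.1 and 30.6 CPM in homozygous hearts, against 22.3, 21, 24.8 and 21.8 CPM in wild type hearts, and the small heat shock protein Hspb6 was lower, at 501, 692, 671 and 514 CPM, against 739, 985, 789.6 and 861 CPM.

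Markers of other tissues were read beside these values, since Nppa marks atrial and Atp2a1 skeletal muscle. The 10 listed atrial markers, Nppa among them, summed to 332 to 1886 CPM in homozygous hearts and 254 to 785 CPM in wild type hearts, the 9 tested had a median log2 fold change of 0.00, none reached an unadjusted p under 0.05, and Bmp10 was at 0 in all 8 libraries. The 11 skeletal muscle markers summed to 27.3 to 69.4 CPM in homozygous hearts and 30.4 to 59.0 CPM in wild type hearts, with the highest sum in homozygous replicate 3, and 4 of them passed the filter on low counts, with Atp2a1 alone at an unadjusted p under 0.05. The part of skeletal muscle RNA in the level of Atp2a1 was not tested. Fibroblast markers summed to 4355 to 6881 CPM in homozygous hearts and 4649.8 to 5601 CPM in wild type hearts, and endothelial markers to 2880.4 to 3354 CPM and 2810.4 to 3387 CPM in the same order of groups. Their median log2 fold changes were -0.02 and -0.04, and those of the other vascular lists were 0.07 for endocardial, 0.07 for lymphatic endothelial, 0.05 for smooth muscle and -0.08 for pericyte markers. Most markers of lymphoid cells, neutrophils, fat, nerve and the heart's outer lining were too low to be tested. Medians over the 2 to 6 tested members were 0.85 for neutrophil, 0.02 for T cell, 0.02 for thymocyte, 0.14 for B cell, 0.49 for mesothelial and epicardial, -0.17 for Schwann and neuronal and -0.07 for adipocyte markers, with Ly6g, Rag2, Dntt, Themis and Lep at 0 in all 8 hearts. Erythroid markers, which follow the blood left in the tissue, summed to 286 to 818 CPM in homozygous hearts and 297 to 851 CPM in wild type hearts, with a median of 0.14.

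The lowest gene of homozygous replicate 3 relative to the other hearts was Hprt, an X-linked enzyme of purine salvage (chromosome X, 52988137 to 53021659, GRCm38). It had 53.9, 55.4, 5.17 and 53.5 CPM in homozygous replicates 1 to 4, against 52.3, 52.1, 46.5 and 51.0 CPM in wild type hearts. Across the series 3 of 39 libraries held under 10 CPM of Hprt, all of them among the 16 libraries from mice that carry R14del, and none of the 23 libraries from mice without it did. The other 36 libraries held 41.5 to 85.3 CPM. The 3 low libraries were homozygous replicate 3 at 3 weeks, heterozygous replicate 2 at 8 weeks and homozygous replicate 1 at 8 weeks. In that order Atp2a1 stood at 9.15, 20.3 and 3.39 CPM and Ndnf at 15.3, 17.9 and 32.3 CPM. These were the highest values of the series for both genes. Nppa stood at 2223.5 CPM in that heterozygous heart and at 116 to 249 CPM in the other heterozygous hearts. The link between these genes was not tested. Relative to the other 3-week hearts, Hif3a, Gpr22, Arrdc2, Irx2 and Adh1 were the next lowest in homozygous replicate 3. Hif3a stood there at 1.08 CPM and Gpr22 at 10.2 CPM.

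**Figure D3:**
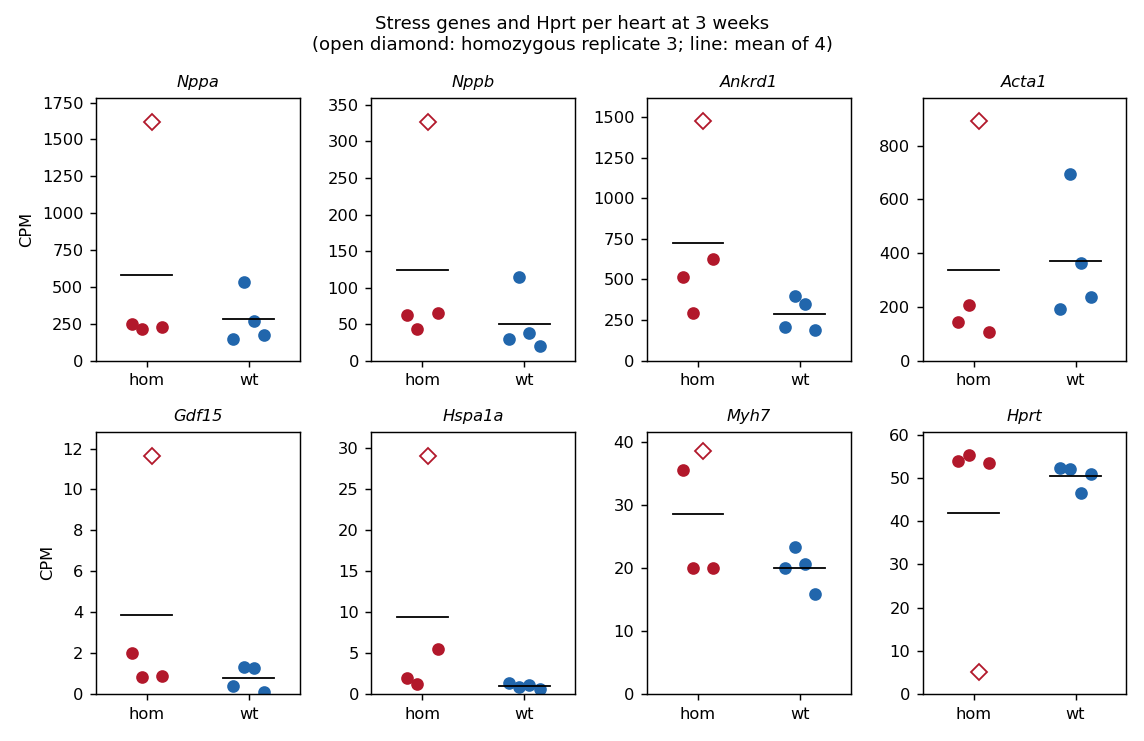
CPM of 7 stress genes and Hprt in each heart at 3 weeks, homozygous (hom) left and wild type (wt) right, on linear axes that start at 0, with the mean of 4 hearts as a line and homozygous replicate 3 as an open diamond. Replicate 3 holds 1621 CPM of Nppa and 5.17 CPM of Hprt, while the other homozygous hearts hold 214 to 246 CPM and 53.5 to 55.4 CPM.

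With all hearts, genes that were more than 2-fold higher at 5 weeks had no common direction at 3 weeks. Those more than 2-fold lower were mostly on the negative side. Without homozygous replicate 3, both sets were mostly on the negative side. At 5 weeks the same test called 5821 of 13323 genes (43.7%), 2969 higher and 2852 lower in homozygous hearts, or 5388 and 1411 with scaling by library size alone, which moves the median of all genes by 0.21. Of the 784 genes tested at both ages that were more than 2-fold higher at 5 weeks, 400 (51%) had a positive fold change at 3 weeks, with a median log2 fold change of 0.01. Without homozygous replicate 3 the share was 38.1% and the median -0.09. The score of these genes was -0.0032, -0.052, 0.276 and -0.198 in homozygous replicates 1 to 4, against -0.057, 0.152, -0.0043 and -0.053 in wild type hearts, and homozygous replicate 3 and wild type replicate 2 were the highest. Of 262 genes more than 2-fold lower at 5 weeks, 182 (69.5%) had a negative fold change at 3 weeks, with a median of -0.16, or 63% and -0.12 without replicate 3. For these genes the score was -0.083, 0.033, -0.289 and 0.047 in homozygous hearts, against 0.125, 0.052, 0.161 and 0.109 in wild type hearts, and all 4 homozygous hearts were below all wild type hearts.

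The genes with the smallest p at 5 weeks had smaller fold changes at 3 weeks. Spp1, osteopontin, was not tested at 3 weeks because of its low level of 0.522 to 4.43 CPM in homozygous hearts and 0.264 to 2.51 CPM in wild type hearts, and had a log2 fold change of 6.72 at 5 weeks. Lgals3, a galectin of macrophages, had a log2 fold change of 0.37 at 3 weeks and 5.02 at 5 weeks, Serpina3n 0.44 and 5.23, Nmrk2, a kinase of NAD synthesis, 0.79 and 4.91, and the macrophage gene Mpeg1 -0.32 and 2.90. On the lower side, Kcnip2, which helps form the channel of the transient outward current, had -0.24 at 3 weeks and -1.64 at 5 weeks, Lrtm1 -0.50 and -1.70, Ogdhl -0.35 and -1.63, and Lgals4 -0.25 and -2.28. The 5-week values passed the adjusted threshold of edgeR for each gene named here, and the difference between the ages did so as well. The genes were chosen by their p at 5 weeks, so the first result was fixed by the choice. The difference uses the same 5-week libraries and is not separate evidence.

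**Figure D4:**
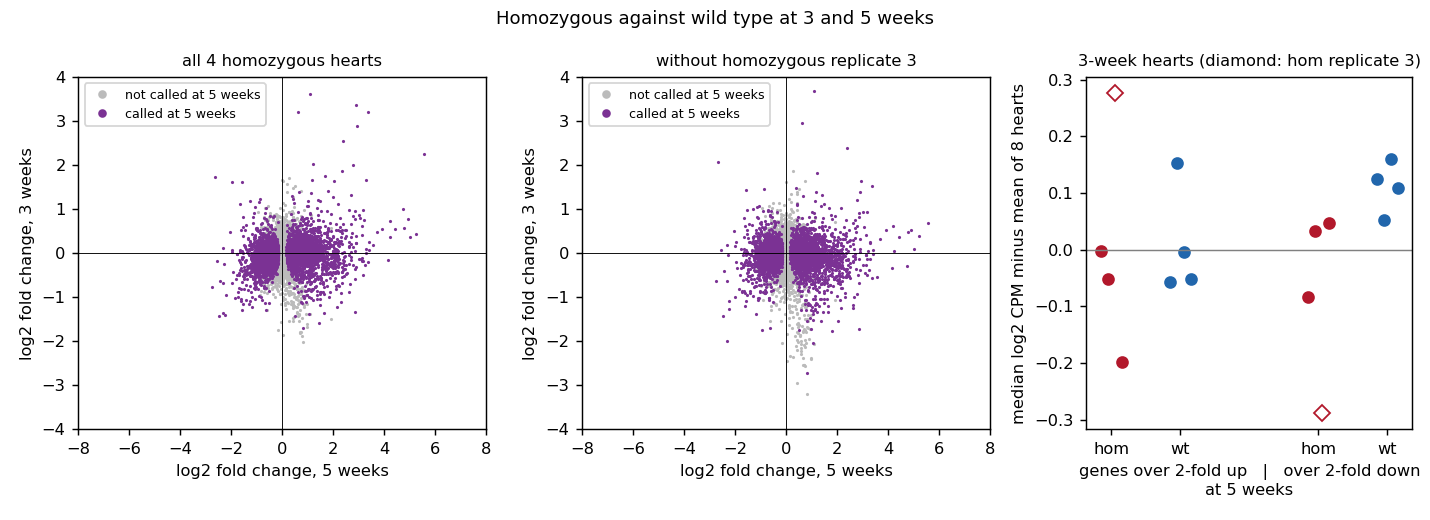
Left and middle, log2 fold change (homozygous over wild type) of each gene at 3 weeks against 5 weeks, with all hearts and without homozygous replicate 3, and genes called at 5 weeks in purple. Right, the score per 3-week heart of the genes more than 2-fold up or down at 5 weeks, homozygous (hom) left of wild type (wt) and replicate 3 as an open diamond, at 0.28 for the genes up and -0.29 for the genes down.

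The difference between the effects at the 2 ages was tested in a single fit of all 39 libraries. The effect at 5 weeks differed from that at 3 weeks in 3199 of 15258 genes (21%), 1525 (9.99%) with the more positive effect at 5 weeks and 1674 (11%) with the more negative one, and scaling by library size alone gave 2709 and 578. The effect at 8 weeks differed from that at 3 weeks in 6982 genes (45.8%). Of 15 fetal and stress genes, 6 had a called difference, while Nppb, Acta1 and Rcan1 did not, with differences of 0.68, 0.71 and 1.14. The effect on Nppa was higher at 5 than at 3 weeks by 3.68 (log2; adjusted p = 0.00222 by edgeR's quasi-likelihood test with Benjamini-Hochberg adjustment), on Myh7 by 3.17, on Col1a1 by 1.90, on Col3a1 by 2.03 and on Postn by 2.44. For Pln itself the log2 difference was -0.92, and at 5 weeks it averaged 3865 ± 192 CPM in homozygous hearts, against 5813 ± 138 CPM in wild type hearts (SD, n = 4 each). The difference of -4.43 for Cyp26b1, an enzyme that degrades retinoic acid, rested on homozygous replicate 1 at 3 weeks, which held 101 CPM beside 2.81, 5.74 and 8.08 CPM in the other homozygous hearts.

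Genes that differed at 3 weeks were partly on the same side later. Among 1472 genes at an unadjusted p under 0.05 at 3 weeks that were tested at 5 weeks, 61.5% had the same direction at both ages, against 54.9% of all 13005 genes tested at both. Without homozygous replicate 3 these shares were 48.5% of 1440 genes and 49.9% of 13037 genes. Of the 526 genes with non-overlapping groups described above, 132 (25.1%) were called in the same direction at both 5 and 8 weeks, 84 lower and 48 higher, of 183 lower and 343 higher genes chosen at 3 weeks on the CPM scale (249 and 275 with TMM-scaled values), against 18.4% of all 12967 genes tested at the 3 ages (43.7% were called at 5 weeks and 55.3% at 8 weeks). Called in the opposite direction at both ages were 45 (8.56%), against 11.2% of all genes. At 5 weeks alone, 34% of the 526 genes were called the same way and 13.9% the opposite way, against 26% and 17.6% of all genes. Chosen without homozygous replicate 3, 697 genes gave 27.1% and 20.8%, against 22.4% and 21.1% of all genes.

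Among the genes that stayed lower, the log2 fold changes at 3, 5 and 8 weeks were -1.43, -2.48 and -3.55 for Mylk4, -1.40, -2.26 and -3.30 for Lrat, and -1.08, -1.64 and -3.30 for Scn4a. Klhl33 had -1.07, -1.42 and -3.31, and Pfkfb1 -1.28, -1.59 and -2.59. Ano10 stayed near the same value, with -0.99, -0.85 and -0.83. None of these 6 genes had a called difference between the effects at 5 and 3 weeks by edgeR's quasi-likelihood test with Benjamini-Hochberg adjustment, where the adjusted p ran from 0.15 to 0.81. At 5 and at 8 weeks each of the 6 fell in homozygous hearts at the adjusted threshold of edgeR. Between 8 and 3 weeks the effect differed at that threshold for 5 of the 6, by -2.13 for Mylk4, -1.92 for Lrat, -2.23 for Scn4a, -2.26 for Klhl33 and -1.32 for Pfkfb1, while for Ano10 the difference was 0.15.

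Other genes had fold changes on opposite sides at 3 weeks and later, though edgeR's quasi-likelihood test called none of them at 3 weeks. Plekhh1 was higher at 3 weeks and lower afterwards, with log2 fold changes of 1.61, -1.60 and -3.04. The difference between its effects at 5 and 3 weeks was -3.25 (adjusted p = 2.26e-05 by edgeR's quasi-likelihood test with Benjamini-Hochberg adjustment). Ppargc1a had 0.79, -0.72 and -0.69, with a difference of -1.55, and Abca4 had 1.08, -0.56 and -1.15, with a difference of -1.69. Both differences passed the adjusted threshold of edgeR, as did those of Cish, Pdzd2 and Emilin2, at -1.21, -1.29 and -1.36. These genes were named at least in part for their 3-week values, which the differences use again. The differences are therefore not separate evidence. In the other direction, Ifi27l2a was lower at 3 weeks and higher at 5 weeks, with -1.07 and 1.19, and so were Lyz2 with -0.46 and 2.52 and C1qb with -0.30 and 2.03. For Lyz2 and C1qb the groups overlapped at 3 weeks, so a called difference does not settle the side of their 3-week effect. Of the 45 genes called the opposite way at both later ages, 43 had a called difference between the effects at 5 and 3 weeks. The share over all genes was 21%. The 45 genes were chosen for opposite directions in these same libraries, so their number is not separate evidence.

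**Figure D5:**
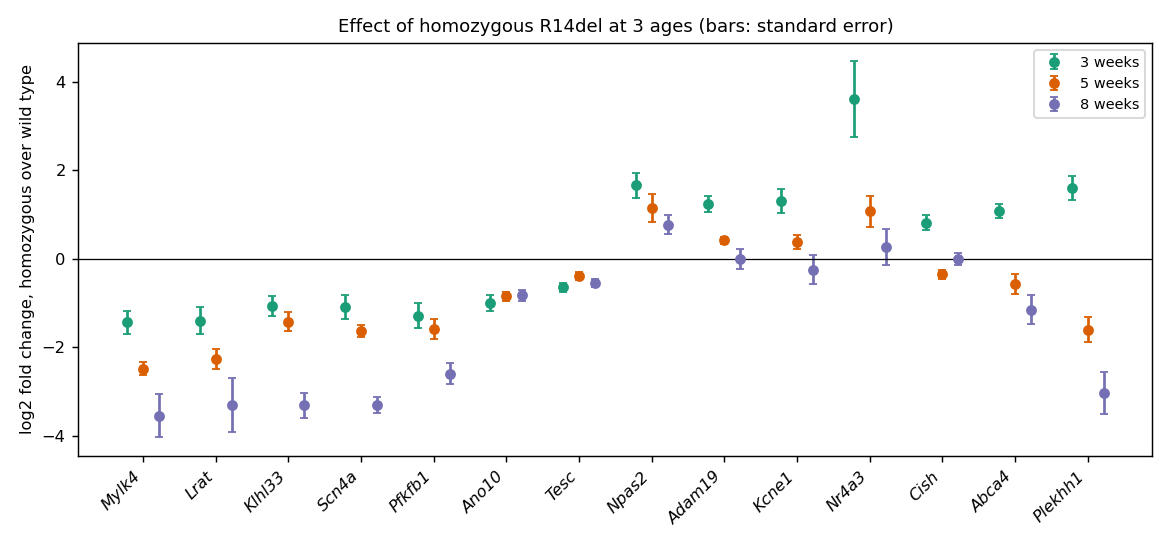
Log2 fold change (homozygous over wild type) of 14 genes at 3, 5 and 8 weeks, with the standard error as bars. Mylk4, Lrat, Klhl33, Scn4a and Pfkfb1 lie below 0 at each age, while Plekhh1 and Abca4 lie above 0 at 3 weeks and below 0 at 5 and 8 weeks.

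The genes near Pln were read separately because a mutant allele is inherited together with its surroundings on chromosome 10. Of the 526 genes with non-overlapping groups, 20 (3.8%) were on chromosome 10, which holds 4.86% of the genes tested. Within 5 Mb of Pln 20 other genes were tested, and 3 of them had an unadjusted p under 0.05, Gja1 among them. Of all genes tested, 11.3% reached that p.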

How the data were processed

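RNA-seq of left ventricles was deposited as a table of raw read counts per Ensembl gene for 39 libraries, 38293 genes in all, and no column was without a sample. Trizol RNA and stranded TruSeq mRNA libraries were used, per the labels' protocols. Per the submitters' processing notes, the tools were STAR 2.7.3a, Subread 2.0.0 and featureCounts, with build mm10. The counting's strand setting and annotation release are unstated in the labels, so reads of overlapping or antisense genes may be shared. Symbols came from GENCODE vM21 (36429 IDs, holding all but 0.13% of counts).

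Starting from the deposited counts, genes passed filterByExpr of edgeR 4.0.16, libraries were scaled by TMM, and edgeR's quasi-likelihood test compared 4 homozygous with 4 wild type libraries (13427 genes). P-values were adjusted by the Benjamini-Hochberg method over all genes tested, with a threshold of 0.05, and the procedure was tested on simulated data. Standard errors were derived from the fold change and its F statistic. The same fit was made without homozygous replicate 3, at 5 and at 8 weeks, and 39 libraries were fitted together to test differences between ages. Library totals were 13.07 M to 18.95 M. Alternatives were DESeq2 1.42.0, voom with quality weights in limma 3.58.1, scaling by RLE or by library size, other filters, robust dispersion, a replicate block and leaving out each library (R 4.3.3). The counts of list members without each library were added after homozygous replicates 3 and 4 had been seen apart.

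The comparison, the 23 function lists and the 18 cell type lists were chosen with earlier results of these data known. Genes are named by a rule: genes of calcium handling, stress and matrix; the 8 largest fold changes each way among genes with non-overlapping groups, an unadjusted p under 0.05 and at least 5 CPM; up to 12 genes called by at least 2 alternatives; from each list the 3 smallest p-values and 1 gene of the other direction; without homozygous replicate 3 the 6 smallest p-values each way; the 5 largest differences between ages each way; the 6 genes each way with the widest gap of homozygous replicate 3; and the 5 smallest p-values each way at 5 weeks. Of 213 genes so chosen, 94 are described. A few marker genes outside the rule are named where they are at 0. Promoter sequences came from RefSeq.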

Additional observations from a re-analysis of the deposited data

Results flagged for a closer look

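Of 169 groups of 4 hearts examined for single genes, 21 held a heart far from the other 3 (Dixon's ratio above its critical value), where chance gives about 1 in 20. In 14 of the 21 that heart was homozygous replicate 3, but several of these genes were named for the gap of that heart, for their p without it, or, as Nppa, for singling it out, so this number says nothing about how often it stands apart. Homozygous replicate 3 stood high in Nppa (1621 CPM), Nppb (327 CPM), Acta1 (891 CPM), Ndnf (15.3 CPM), Hspa1a (29.1 CPM), Hspa1b (34.4 CPM), Gdf15 (11.6 CPM), Egr2 (7.16 CPM) and Atp2a1 (9.15 CPM). It stood low in Hprt (5.17 CPM), Hif3a (1.08 CPM), Ramp1 (15.2 CPM), Pdzd2 (126 CPM) and Myom1 (1166 CPM). The other hearts singled out were homozygous replicate 1 for Sln (1.43 CPM) and Cyp26b1 (101 CPM), homozygous replicate 2 for Lrat (11.5 CPM), homozygous replicate 4 for Ifi27l2a (4.55 CPM) and Ppargc1a (278 CPM), wild type replicate 4 for Emilin2 (120.2 CPM) and wild type replicate 2 for Tcap (816 CPM).

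For 40 of the 94 genes described, the effect of the genotype differed between 5 and 3 weeks at an adjusted p under 0.05 in edgeR's quasi-likelihood test of the difference, against 21% of all 15258 genes, and some of the 94 were named for such a difference or for their p at 5 weeks. Given as the log2 effect at 5 weeks minus that at 3 weeks, the difference for stress genes was 3.68 for Nppa, 3.17 for Myh7, 1.33 for Ankrd1 and 4.08 for Nmrk2. For matrix genes it was 1.90 for Col1a1, 2.03 for Col3a1, 2.44 for Postn and 5.50 for Spp1. For genes of macrophages, the acute phase and the interferon response it was 2.94 for Lyz2, 2.29 for C1qb, 3.18 for Mpeg1, 4.60 for Lgals3, 4.73 for Serpina3n, 2.22 for Ifi27l2a, 0.995 for Irf7, 1.43 for Ifit3 and 1.81 for Ifit3b, and for the remaining genes with a positive difference 0.60 for Mcm7, 0.57 for Fam213b and 1.27 for Fkbp5. Negative differences in genes of the muscle cell and of metabolism were -0.92 for Pln, -0.88 for Hrc, -0.88 for Myh6, -1.44 for Kcnip2, -0.87 for Myom2, -0.76 for Acsl1, -1.55 for Ppargc1a, -1.33 for Ogdhl, -1.24 for Lrtm1 and -2.08 for Lgals4. The remaining negative differences were -3.25 for Plekhh1, -1.69 for Abca4, -0.39 for Nt5c2, -1.21 for Cish, -1.19 for Cry1, -0.55 for Chordc1, -0.43 for Fubp1, -1.29 for Pdzd2, -1.36 for Emilin2 and -4.43 for Cyp26b1.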

How the results depend on the processing

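At 3 weeks edgeR's quasi-likelihood test called 0 genes, while DESeq2 called 119 (its adjusted p was not available for 790 genes), the unfiltered fit 25 of 21752 genes and the fit of 39 libraries 46. RLE and library-size scaling, limma-voom, robust dispersion, a filter at 5 CPM and the replicate block called 0. Leaving out each heart gave 0 to 4 calls, with 4 without homozygous replicate 2. Without homozygous replicate 3 the counts were 0 in the quasi-likelihood test, 126 with DESeq2, 2 with library-size scaling, 229 without the filter, 2 with robust dispersion and 25 with all libraries in the fit; leaving out a further heart gave 0 to 12, with 12 without homozygous replicate 2. Deviations of same-numbered hearts of the 2 genotypes had correlations of 0.23, -0.0038, -0.06 and 0.0049. Those of differently numbered hearts ran from -0.23 to 0.35. These values cannot decide whether the numbers pair the samples, which the labels do not state. The replicate block called 0 genes with all hearts, against 11 without homozygous replicate 3 (1 higher and 10 lower). Of 1574 values of 93 tested genes under an alternative, 68 (32 genes) passed the threshold, and 21 (12 genes) changed sign. Leaving out each heart gave log2 fold changes of -0.51 to 0.32 for Sln, -0.12 to 0.0057 for Casq2, -0.29 to 1.49 for Nppa, -0.0084 to 0.14 for Myh6, -1.29 to 0.29 for Acta1, -0.14 to 0.20 for Col1a1, -0.24 to 0.10 for Col3a1 (0.018 with library-size scaling), -0.21 to 0.37 for Postn, -0.45 to 0.0897 for Hprt, -0.061 to 0.74 for Serpina3n, -0.68 to 2.11 for Cyp26b1 and -0.41 to 0.0989 for Gpr22. The sign changed without homozygous replicate 3 for Nppa, Col1a1, Postn, Hprt and Gpr22, and without homozygous replicate 1 for Sln, Myh6, Acta1, Serpina3n and Cyp26b1. These hearts were not the only ones on which a sign depended. Among wild type hearts, replicate 2 held the most Acta1 (696 CPM) and replicate 3 the most Sln (21.5 CPM). Of 410 list medians under an alternative, 58 had the other sign, and 406 moved by less than 1 SD of the homozygous hearts. Those that moved further were the sarcomere (-0.046 to 0.069), atrial (-0.13 to 0.27) and lymphatic endothelial lists (0.0045 to 0.27) when hearts were left out, and the genes lower at 5 weeks, with a 3-week median of -0.05 over all of them against -0.16 over those past 2-fold. The cause of these changes was not tested. Genes under 1 CPM rest on few reads.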
